A study of Mus musculus with 2 samples.

Results

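Solute carriers are membrane proteins that move amino acids, sugars, nucleosides, ions, metals, vitamins and metabolites across the plasma membrane and the membranes of organelles. They work as facilitators, as exchangers, or as cotransporters that use a sodium, proton or chloride gradient. The mitochondrial carriers of the Slc25 family sit mostly in the inner mitochondrial membrane. Cultured cells depend on such carriers for every nutrient that cannot cross a lipid bilayer.

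All genes on the array whose mouse symbol begins with Slc and a digit were taken, leaving out the glucose transporters Slc2a1 and Slc2a3. The symbol came from the array's gene accession, looked up in the mouse RefSeq gene table. This gave 220 genes, measured by 222 probes, of 10137 named genes on the array. No measured value entered the choice of genes. Each gene was placed in a substrate class by its family, or by its own symbol where a family carries several kinds of substrate, and was read from its brightest probe.

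The cells were of the mouse embryonic stem (ES) cell line EB5, grown on gelatin without feeders, and received an siRNA against the transcription factor Klf4 together with the plasmid pCAGEGFP-IP. Puromycin was added 24 h after transfection, and RNA was extracted with Trizol 24 h later. This siKlf4 ES cell RNA, labelled with Cy3, was hybridised on 2 arrays against Universal Mouse Reference RNA, labelled with Cy5, a pool of equal amounts of RNA from 11 cultured mouse cell lines derived from testis, skin, myoblasts, mammary gland, B and T lymphocytes, alveolar macrophages, hepatocytes, kidney, embryonic fibroblasts and embryo. ES cells without the Klf4 siRNA were not analysed here, so every ratio sets siKlf4 ES cells against the mixed pool and none isolates the siRNA. The dyes had the same orientation on both arrays, so a dye effect remains in each ratio, and the labels do not say whether the 2 samples came from separate cultures, so p-values measure only the spread between these arrays.

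The ratio was the log2 of ES cells over the pool, and the levels are normalised intensities in arbitrary units, which cannot be compared between genes. A gene was called when its limma p-value, Benjamini-Hochberg adjusted over 21028 probes, was below 0.05, its ratios had 1 sign on both arrays, and its mean log2 ratio was at least 1 in size, which is 2-fold. The median gene probe had 308 and 355 units above local background in the ES channel and 246 and 264 units in the reference channel. Below the 95th percentile of 162 negative control spots, at 155 and 178 units in the ES channel and 40.9 and 58.4 units in the reference channel, a signal above local background and before normalisation gave only a bound. The ES channel therefore had the higher limit, and a low ES level was more often only a bound. The log2 ratios of the negative controls themselves reached 0.52 in size.

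Sox2 and Pou5f1, which mark ES cells, were 5.69 and 2.86 log2 units above the pool. Klf4, the siRNA target, had log2 ratios of 0.43 and 0.59. Klf4 passed the test as higher (limma adjusted p 0.000463), with 2061 and 2340 units in ES cells, against 1531 and 1554 units in the pool. Its mean ratio of 0.51 was within the range of the negative controls, which are dimmer spots. That ratio does not show whether or how far the siRNA lowered Klf4. Of 9 measured ES cell markers 8 were called higher, and they summed to 65200 and 70650 units in ES cells, against 3881 and 4283 units in the pool. Of 8 fibroblast markers 7 were called lower, with sums of 6348 and 6409 units in ES cells and 88750 and 82760 units in the pool, and Lox was not above the negative controls in ES cells. All 5 measured macrophage markers were called lower, with sums of 5165 and 5251 units in ES cells and 70850 and 63550 units in the pool, and Ctss was not above the negative controls in ES cells. Other lists were less uniform. Of 3 measured hepatocyte markers 0 were called, with sums of 1369 and 1517 units in ES cells and 1505 and 1672 units in the pool. Of 6 measured trophectoderm markers 1 was called higher and 3 lower, and of 4 measured primitive endoderm markers 0 were called higher and 2 lower. The share of these cell types in any carrier's ratio was not tested, and in bulk RNA fewer cells of a type and less RNA per cell cannot be told apart.

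Most solute carriers lay close to the pool. The median log2 ratio was -0.01 and the quartiles were -0.19 and 0.12. Of the 220 members, 174 (79.1%) lay within 0.5 of 0 on the log2 scale, against 69.0% of all named genes. The median size of the log2 ratio was 0.17 for members and 0.24 for all named genes.

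At 2-fold, 11 members were called higher in ES cells (5.0%) and 10 lower (4.55%). Of all named genes, 6.73% were called higher and 7.5% lower, and of all probes 5.08% and 5.19%. The members' shares were near or below these backgrounds, so the number of called carriers is not a result about the family. Both channels were above the negative controls on both arrays for 184 members. Among those, 11 were called higher (5.98%) and 7 lower (3.8%), against 7.63% and 7.25% of the named genes measured that way. A further 9 members were not above the limit in ES cells alone, 13 were above it in neither channel, 14 passed it on 1 array only, and 0 were missing in the pool alone.

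With no size limit, 56 members passed the test as higher, 75 as lower and 89 did not pass, against backgrounds of 34.8% higher and 34.2% lower for named genes. Of those that passed, 87 had ratios no larger than the largest negative control. Beyond that range were 20 members higher (9.09%) and 24 lower (10.9%), against 15.9% and 14.3% of named genes.

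The values were read from 60-base probes, and the last 30 bases are shown for some members described below, because hybridisation to the probe gave their values. Capitals mark an AATAAA polyadenylation signal. The probes of the 4 members farthest above the pool, of Slc25a24 and Slc6a9 below it, and the pair that read Slc25a5 were as follows.
Slc35f2: gaaaactttatgtaaattgtttttgtataa
Slc7a3: gttgtcttgttctcctatacaataatggag
Slc25a13: gacagatatgctctaagtttataattgatt
Slc39a4: gacttcAATAAAgacttttcaatcaaaccc
Slc25a24: ttatgaaacttattctaaaacacagcttgg
Slc6a9: ttttaaagtccgtaggttttaatgaaattt
Slc25a5, brighter probe: atcttgaacattctggacagattctctggg
Slc25a5, dimmer probe: aatactcacatcttcatcagctggatgatt

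The signal was present in the whole probe of 2 of the 11 higher members, of 2 of the 10 lower members and of 8.13% of all probes. Median GC content was 40% in the higher members' probes, 39.2% in the lower members' probes and 41.7% in all probes. Probe composition is a description here and was not tested against the ratios.

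**Figure D1:**
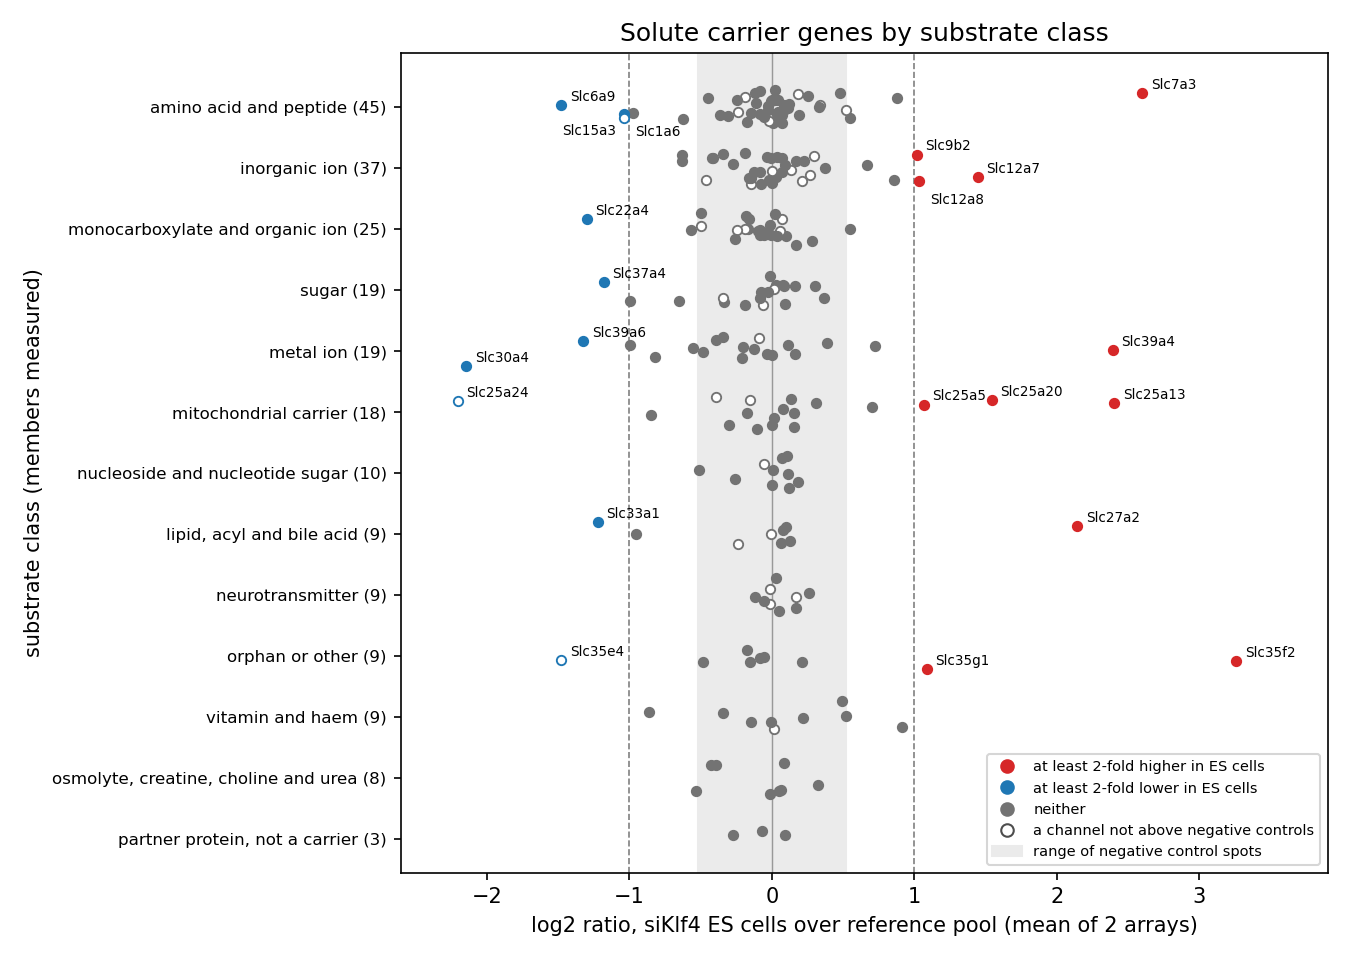
Mean log2 ratio of siKlf4 ES cells over the reference pool on 2 arrays (x axis) for each of the 220 solute carrier genes, by substrate class (y axis, number of members in brackets). Dashed lines mark 2-fold, the grey band spans the negative control spots, open points have a channel not above the negative controls, and most points of every class lie near 0, with 11 members to the right (red) and 10 to the left (blue).

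Amino acid and peptide carriers formed the largest class, with 45 members. Of these 1 was called higher (2.22%) and 3 lower (6.67%) at 2-fold, against 6.73% and 7.5% of named genes. The median log2 ratio was 0.00. The 1 higher member was Slc7a3, a cationic amino acid transporter that takes up arginine and lysine. It had 5712 and 5506 units in ES cells, against 969 and 882 units in the pool. Slc7a3 was thus 6.07-fold higher in ES cells, at a mean log2 ratio of 2.60 ± 0.06 (SD, n = 2; limma adjusted p 9.1e-07). Of other Slc7 members, the cationic amino acid carriers Slc7a1 and Slc7a2 had log2 ratios of -0.03 and 0.02, and neither passed the test. Slc7a7, which exchanges cationic and neutral amino acids, passed as higher at 0.88. Slc7a9 also passed, at 0.33, within the range of the negative controls, while Slc7a6 at -0.01 did not pass. The differences between these genes were not tested.

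The 3 lower members of the class carry glycine, glutamate and peptides. Slc6a9, the plasma membrane glycine transporter also found in glia, had 840 and 855 units in ES cells, against 2397 and 2321 units in the pool. Its mean log2 ratio was -1.48 ± 0.05 (SD, n = 2; limma adjusted p 3.58e-06), a level 2.78-fold higher in the pool. Slc1a6, a glutamate transporter known from cerebellar Purkinje cells, had 199 and 195 units in ES cells, against 400 and 407 units in the pool, with a mean log2 ratio of -1.03. Its ratio ranged from -1.628 to -0.443 over the processing settings, and was -0.995, just under 2-fold, in the scanner's processed signals. Slc15a3, a lysosomal carrier of peptides and histidine, was not above the negative controls in ES cells on either array. Slc15a3 was at least 1.23-fold higher in the pool by that bound, under the 2-fold that its measured log2 ratio of -1.04 gives (66 and 71 units in ES cells, against 141 and 140 units in the pool).

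The general amino acid carriers of growing cells lay nearer to the pool. Slc7a5, the light chain of the large neutral amino acid exchanger, had a log2 ratio of 0.12, and Slc3a2, the heavy chain that brings it to the surface, one of -0.14. Slc7a11, the cystine carrier that shares this heavy chain, was above the negative controls in neither channel. The glutamine carrier Slc38a2 had a log2 ratio of 0.03 and did not pass the test, and Slc38a1 had one of 0.25. Among exchangers of small neutral amino acids, Slc1a5 had a ratio of -0.62 and Slc1a4 one of -0.36. Both passed the test as lower, although only Slc1a5 lay outside the range of the negative controls. Slc7a8, a neutral amino acid exchanger, was just outside the 2-fold limit at -0.97, and Slc7a7, the light chain of a cationic and neutral amino acid exchanger, was at 0.88.

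Mitochondrial carriers held 3 of the 11 higher members and 1 of the 10 lower members, from 18 measured, and their median log2 ratio was 0.05. Of the class 16.7% were thus called higher and 5.56% lower, against 6.73% and 7.5% of named genes. These shares rest on few genes and their difference was not tested. The levels of the members called higher did not overlap between ES cells and the pool, which the 2-fold call itself makes likely. Slc25a13, the aspartate and glutamate exchanger citrin of the malate-aspartate shuttle, had 2048 and 2572 units in ES cells, against 417 and 451 units in the pool. It was 5.29-fold higher in ES cells, with log2 ratios of 2.30 and 2.51 (mean 2.40 ± 0.15, SD, n = 2; limma adjusted p 2.81e-06). Its paralogue Slc25a12, which does the same exchange, had 800 and 757 units in ES cells, against 712 and 702 units in the pool, a mean log2 ratio of 0.14. The difference in ratio between these paralogues was not tested.

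Slc25a20, the carnitine and acylcarnitine carrier that brings fatty acids in for oxidation, had 647 and 662 units in ES cells, against 229 and 220 units in the pool. Its mean log2 ratio was 1.55 ± 0.06 (SD, n = 2; limma adjusted p 3.57e-06). Slc25a5, an ADP/ATP translocase, had 15209 and 17232 units in ES cells, against 7695 and 7779 units in the pool, and the mean log2 ratio was 1.07. Its other probe gave 1.21. These probes share no 8-base word, and both were higher than 2-fold on average, but near-identical copies of this gene could add signal to either. On array 1 alone the brighter probe was at 0.98, under 2-fold.

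Slc25a24, a calcium-regulated carrier of ATP-magnesium and phosphate, stood at the other end. It had 63.5 and 63.2 units in ES cells, against 297 and 287 units in the pool, at a log2 ratio of -2.20 (limma adjusted p 1.14e-06). Its ES signal was not above the negative controls on either array, so the pool was at least 2.51-fold higher. Slc25a17, a peroxisomal member of the family, had a log2 ratio of -0.85 and Slc25a38, a glycine carrier used in haem synthesis, one of 0.70, both outside the range of the negative controls. The citrate carrier Slc25a1 was at 0.08 and the dicarboxylate carrier Slc25a10 at -0.30. The glutamate carrier Slc25a22 was at 0.00.

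**Figure D2:**
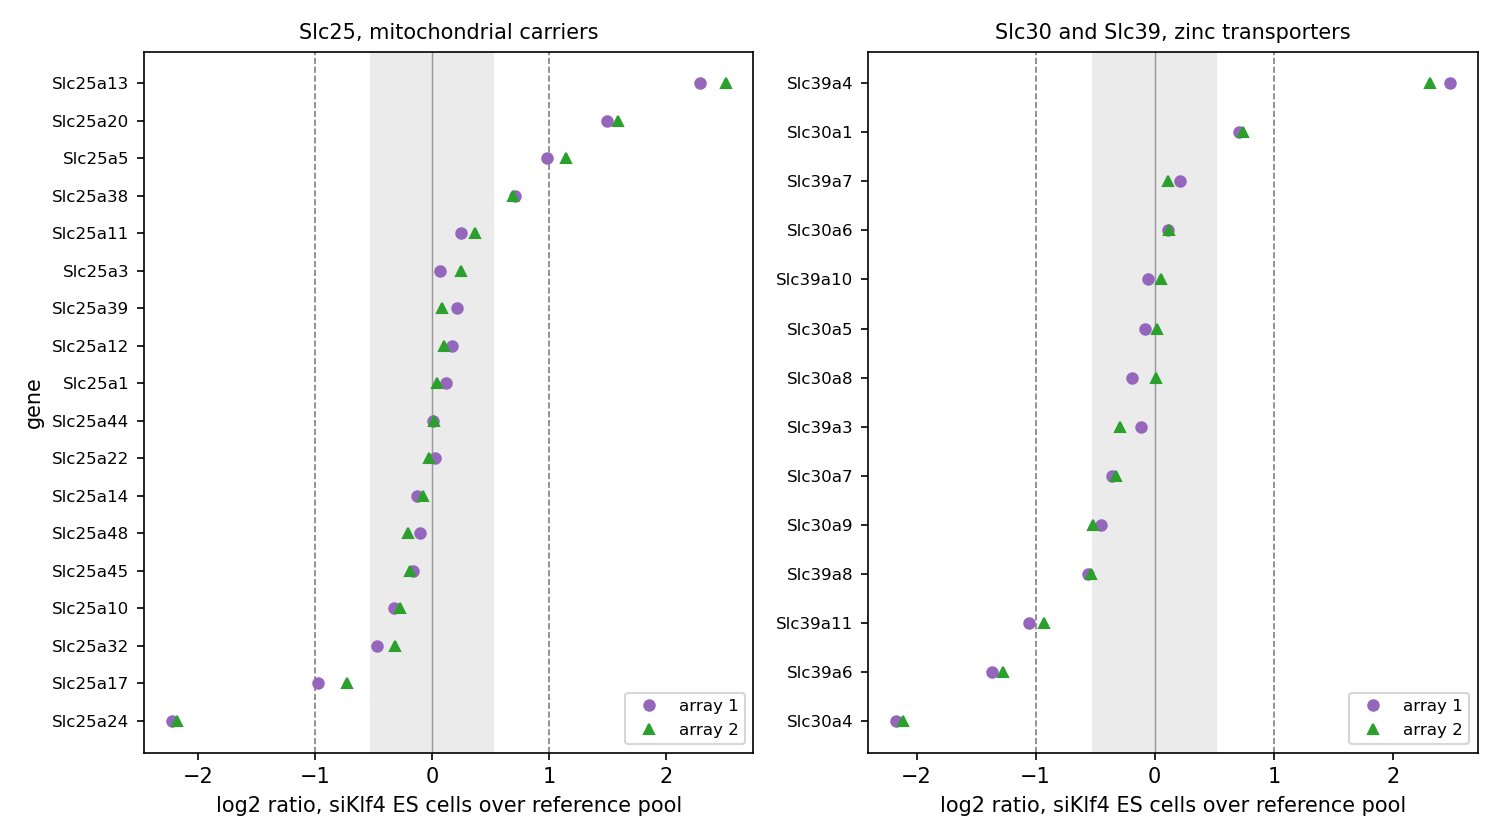
Log2 ratio of siKlf4 ES cells over the reference pool on each array (circle, array 1; triangle, array 2) for the 18 Slc25 mitochondrial carriers (left) and the 14 Slc30 and Slc39 zinc transporters (right), with the grey band for the negative controls and dashed lines at 2-fold. Slc25a13 and Slc25a24 lie at opposite ends of the left panel, and Slc39a4 and Slc30a4 at opposite ends of the right panel.

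Among zinc transporters, Slc39 proteins bring zinc into the cytosol, and Slc30 proteins move it out or into vesicles. Of the 14 measured, 1 was called higher (7.14%) and 2 lower (14.3%), against 6.73% and 7.5% of named genes, 8 lay within 0.5 of 0, and the median log2 ratio was -0.15. Slc39a4, the importer that takes up dietary zinc in the gut, had 4698 and 4882 units in ES cells, against 844 and 984 units in the pool. It was 5.26-fold higher in ES cells, at a mean log2 ratio of 2.39 ± 0.12 (SD, n = 2; limma adjusted p 1.94e-06).

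The zinc carriers called lower were an exporter and an importer. Slc30a4, which loads zinc into vesicles and is needed for zinc in mouse milk, had 131 and 135 units in ES cells, against 590 and 581 units in the pool. The pool was 4.42-fold higher, at a log2 ratio of -2.14 ± 0.05 (SD, n = 2; limma adjusted p 1.3e-06). Before normalisation the ES signal of Slc30a4, 161 and 187 units, was only just above the limits of 155 and 178 units. Its ratio ranged from -3.64 to -0.87 over the settings, and was under 2-fold without background correction. Slc39a6, an importer, had 677 and 693 units in ES cells, against 1747 and 1678 units in the pool, at a log2 ratio of -1.32. Neither gene's channels overlapped, which the 2-fold call itself makes likely. The importer Slc39a11 lay just outside the limit at -0.996, and the exporter Slc30a1, a target of zinc-sensing transcription, had a ratio of 0.72. The exporter Slc30a5 at -0.03 and the importer Slc39a10 at 0.00 did not pass the test.

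The other metal carriers had no member called at 2-fold. Iron and manganese carriers were lower or close to the pool: Slc11a1, of macrophage phagosomes, had a log2 ratio of -0.82, Slc11a2, the ferrous iron importer, one of -0.39, and the iron exporter Slc40a1 one of -0.13, which did not pass. The pool holds macrophage RNA, and the macrophage markers given above were also lower in ES cells. The share of macrophage RNA in these ratios was not tested. Over all 19 metal carriers the median log2 ratio was -0.20, the lowest of the classes.

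Inorganic ion carriers had 37 members, with 12 higher and 12 lower when size was not required. At 2-fold, 3 were called higher (8.11%) and 0 lower, against 6.73% and 7.5% of named genes. All 3 exchange or cotransport sodium, potassium, chloride or protons, or belong to a family that does. Slc12a7, a potassium and chloride cotransporter, had 951 and 849 units in ES cells, against 325 and 334 units in the pool. Its mean log2 ratio was 1.45 ± 0.14 (SD, n = 2; limma adjusted p 1.25e-05). Of its relatives, the potassium and chloride cotransporter Slc12a4 was lower in ES cells at -0.63, while Slc12a5 was above the negative controls in neither channel. The sodium, potassium and chloride cotransporter Slc12a2 was at 0.00 and did not pass.

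Slc12a8, a little-studied member of the same family, had 223 and 224 units in ES cells, against 112 and 106 units in the pool, a log2 ratio of 1.04. Slc9b2, a sodium and proton exchanger of organelles and the plasma membrane, had 301 and 301 units in ES cells, against 154 and 144 units in the pool, a log2 ratio of 1.02. Both lay close to the limit and fell under it on array 1, at 0.99 for Slc12a8 and 0.96 for Slc9b2. The phosphate importer Slc20a1 was at 0.67 and the sulfate carrier Slc26a2 at 0.86, just outside 2-fold, and the sodium and calcium exchanger Slc8a1 was at -0.02 and did not pass.

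Nucleoside and nucleotide sugar carriers, 10 in number, had no member called at 2-fold, and their log2 ratios spanned -0.51 to 0.18. The nucleoside carriers Slc29a2 and Slc28a2 were at 0.11 and 0.01, and neither passed the test. Slc35a1, which takes CMP-sialic acid into the Golgi, was at 0.00. The UDP-galactose carrier Slc35a2 was lowest, with log2 ratios of -0.37 and -0.66.

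Members of the Slc35 family without an assigned substrate held the largest ratio of all. Slc35f2, an orphan carrier of this class, had 2579 and 2964 units in ES cells, against 274 and 304 units in the pool. It was 9.58-fold higher in ES cells, at a mean log2 ratio of 3.26 ± 0.04 (SD, n = 2; limma adjusted p 5.08e-07). Slc35g1, another orphan, had 610 and 598 units in ES cells, against 320 and 251 units in the pool. Its log2 ratios of 0.93 and 1.25 were the farthest apart of any member. Slc35e4 was lower, with 119 and 135 units in ES cells, against 361 and 344 units in the pool, at a log2 ratio of -1.48. Its ES signal exceeded the negative controls on 1 array only. Of the related orphans, Slc35f6 at -0.08 and Slc35g3 at -0.06, named for being near 0, did not pass the test. Slc35f5 at -0.48 and Slc35f1 at -0.18 passed as lower and Slc35e2 at 0.21 as higher, all within the range of the negative controls.

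**Figure D3:**
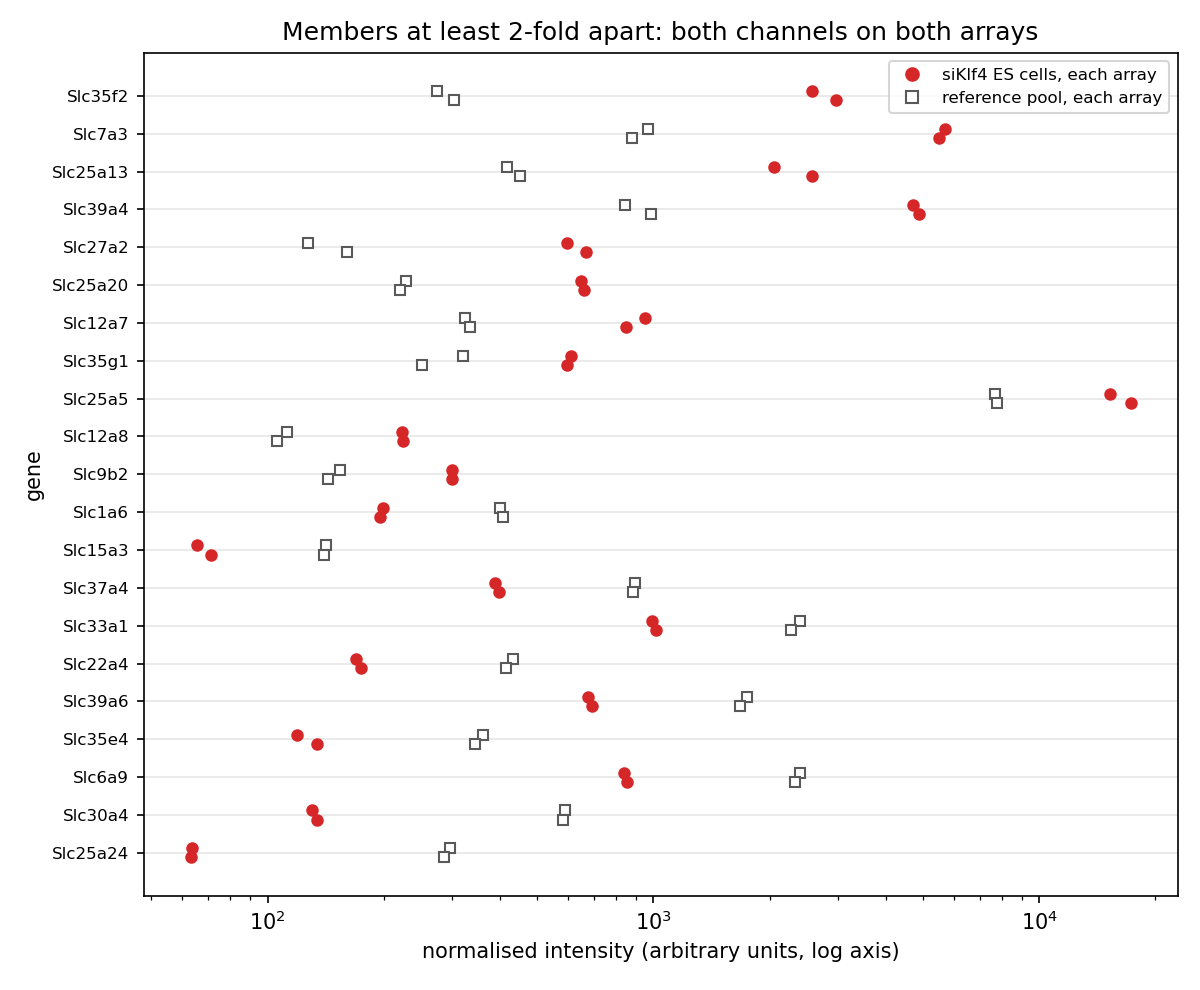
Normalised intensity in arbitrary units (x axis, log scale) of the 11 members called higher and the 10 called lower, each gene a row (y axis) in order of its ratio. Filled circles are siKlf4 ES cells and open squares the reference pool, a symbol for each array. The symbols of the channels do not overlap in any row, which the choice of 2-fold members itself makes likely. The ES signals of Slc15a3 and Slc25a24 were not above the negative controls on either array, and that of Slc35e4 on 1 array only.

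Carriers of lipids and acyl groups had 1 member called higher and 1 lower out of 9 (11.1% each), against 6.73% and 7.5% of named genes. Slc27a2, a very long-chain acyl-CoA synthetase and fatty acid transport protein, had 598 and 668 units in ES cells, against 127 and 160 units in the pool. It was 4.42-fold higher in ES cells, at a log2 ratio of 2.15 ± 0.12 (SD, n = 2; limma adjusted p 2.72e-06). Its ratio ranged from 0.968 to 3.046 over the processing settings, and was under 2-fold without background correction. Slc27a1, its relative of muscle and fat, was at -0.95, just outside the limit, and Slc27a5, the liver bile acid enzyme, was at 0.10 and did not pass. Slc33a1, which carries acetyl-CoA into the endoplasmic reticulum, had 989 and 1016 units in ES cells, against 2398 and 2269 units in the pool, a log2 ratio of -1.22.

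Sugar carriers numbered 19, with 0 called higher and 1 lower (5.26%), against 6.73% and 7.5% of named genes. The 1 was Slc37a4, the glucose 6-phosphate carrier of the endoplasmic reticulum that glucose release needs, with 388 and 398 units in ES cells, against 894 and 884 units in the pool. Its log2 ratio was -1.18 ± 0.04 (SD, n = 2; limma adjusted p 6.48e-06). Slc50a1, a sugar efflux carrier, lay just outside at -0.995. The glucose transporters Slc2a2 at 0.03 and Slc2a8 at -0.01 did not pass the test.

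Monocarboxylate and organic ion carriers had 25 members, 0 called higher and 1 lower (4.0%), against 6.73% and 7.5% of named genes. Slc22a4, a carrier of ergothioneine and organic cations, had 170 and 174 units in ES cells, against 432 and 414 units in the pool, a log2 ratio of -1.30. Its ratio ranged from -1.969 to -0.517 over the processing settings, and was under 2-fold without background correction. The lactate carriers were near the pool, Slc16a1 at -0.18 and Slc16a3 at -0.10, and only Slc16a1 passed the test. Slc22a30 had a brighter probe at -0.09 and a dimmer one at 0.21. These differ in sign, and near-identical copies of this gene could share signal.

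Carriers of vitamins and haem, 9 in number, had no member called at 2-fold. The thiamine carrier Slc19a2 came nearest, with 1400 and 1364 units in ES cells, against 743 and 723 units in the pool, a log2 ratio of 0.91. Folate carriers differed less: Slc19a1 was at -0.14 and Slc46a1 at 0.22. Slc48a1, a haem transporter of endosomes and lysosomes, was at -0.86. The 9 neurotransmitter carriers had none called, and the GABA transporters Slc6a13 at 0.03 and Slc6a11 at 0.05 did not pass the test. The 8 carriers of osmolytes, creatine, choline and urea also had none called, with the taurine carrier Slc6a6 at -0.01, nor did the 3 partner proteins that have a solute carrier symbol but are not carriers, Slc9a3r1, Slc9a3r2 and Slc4a1ap.

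The arrays gave nearly the same ratios for the members. The median size of the difference between arrays was 0.06 log2 units, and 211 of 220 members (95.9%) lay within 0.2, against 92.7% of all named genes. The largest difference, 0.32, belonged to Slc35g1, followed by Slc35a2 and Slc6a15, a carrier of branched-chain amino acids with log2 ratios of 0.35 and 0.62. Signs were opposite for 31 of 220 members, against 866 of 10137 named genes. Across the 220 genes, which are not independent replicates and share both libraries, the ratios of the arrays had r = 0.988. Across all named genes r was 0.990.

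**Figure D4:**
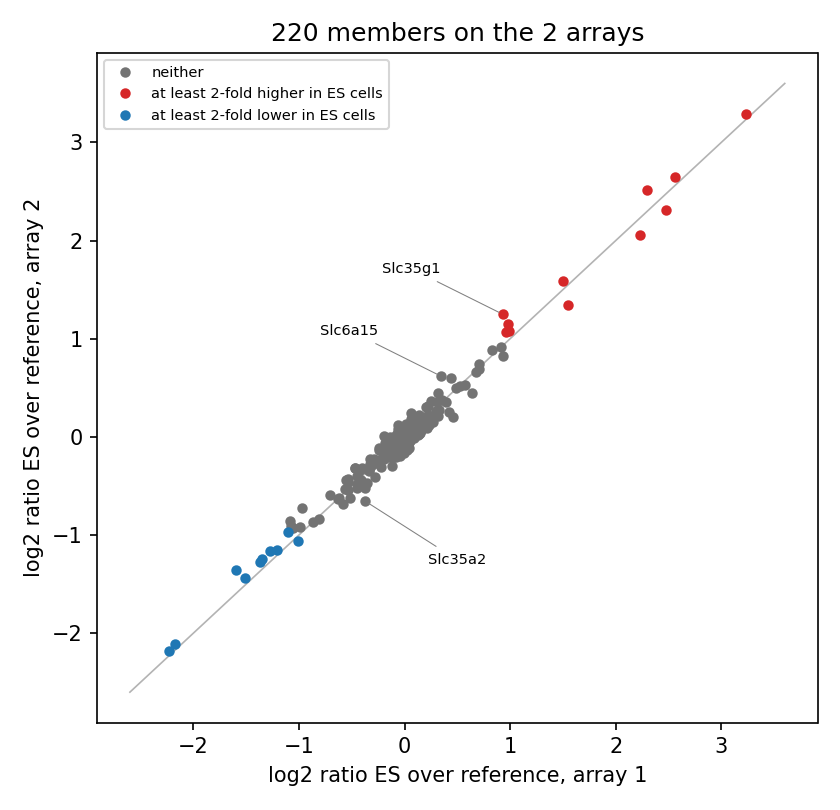
Log2 ratio of siKlf4 ES cells over the reference pool on array 1 (x axis) and array 2 (y axis) for the 220 members, with the line of equality. The called members lie along the line from -2.20 to 3.26, and Slc35g1, Slc35a2 and Slc6a15 are labelled as the members farthest from it.

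Transport genes outside the Slc symbols were counted by the same rule, against the same backgrounds of 6.73% higher and 7.5% lower for named genes. These are counts of few genes, and no list was tested against them. Of 38 other carriers with solute carrier folds, 2 were called higher and 3 lower, among them Ank, a pyrophosphate exporter, at -3.88, and the organic anion carriers Slco3a1 at -2.17 and Slco4a1 at -1.21. Of 32 ABC transporters, 4 were called higher and 2 lower, with the mitochondrial Abcb10 at -3.55 and the drug exporters Abcg2 at 1.5 and Abcc5 at 1.35. None of the 20 P-type pumps was called at 2-fold. Among 12 accessory proteins 1 was called higher and 1 lower. These were Emb, a chaperone of lactate carriers, at 1.34, and Stk39, a kinase that acts on the Slc12 cotransporters, at -1.57.

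The background correction decided how many members passed 2-fold. Without any background correction 5 members were called higher and 1 lower, and with the background taken from the negative controls 18 were called higher and 25 lower. The members called under every correction, normalisation and deposited value tried, and on each array alone, were Slc35f2, Slc7a3, Slc25a13, Slc39a4 and Slc6a9. Every other called member missed 2-fold in at least 1 of these. The scanner's processed signals and the series table gave nearly the same ratios, so they count as 1 deposited value. With an ordinary least squares test, which has 1 degree of freedom per gene, 0 members passed after adjustment and 73 of 220 had an unadjusted p under 0.05. Slc25a24, the lowest member, ranged from -7.34 to -0.58 over the settings, so its size depends on how background is handled.

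**Figure D5:**
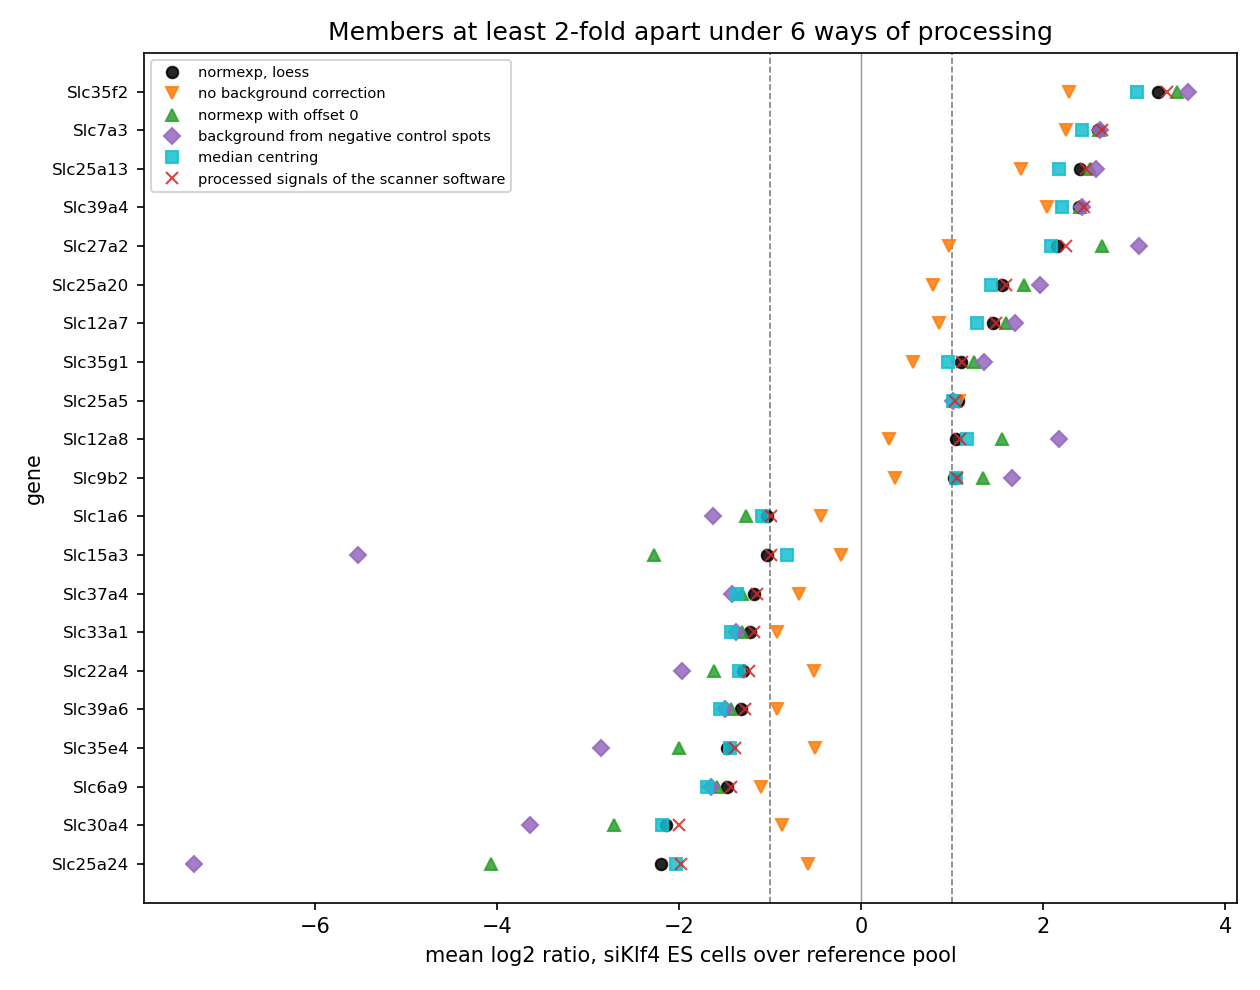
Mean log2 ratio of siKlf4 ES cells over the reference pool (x axis) of each called member (y axis) under the main processing and 5 alternatives, one symbol for each, with dashed lines at 2-fold. Over all settings tried Slc39a4 stayed within 2.05 to 2.48 and Slc7a3 within 2.25 to 2.65, while those of Slc25a24 and Slc15a3 spread the most.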

How the data were processed

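Gene expression was measured on 2 two-colour Agilent arrays of 22132 spots. The deposited scanner files, made with Feature Extraction A.7.5.1 per the file headers, hold spot intensity for both dyes. The deposited series table holds log10 values of unstated scale and centring. Its values lay within 2e-04 of the mean log10 red signal less the log ratio for 99.62% and 99.61% of probes, and its medians were 2.918 and 2.921. Intensities of the mean signal were corrected with normexp (offset 50) against the local background and normalised by loess within each array in limma 3.58.1 (R 4.3.3). Ratios were tested against 0 with lmFit and eBayes (1 residual and 4.24 prior degrees of freedom), which leaves out the pool's own spread. Control spots and 24 outlier-flagged probes were left out. Levels are Aquantile-normalised intensities. In simulated data, the fit called 97.2% of changes of log2 size 0.5 and 99.4% of those of size 1. With no size required, the share of false calls was 8.04%, above the threshold of 0.05. The simulation changed only a small part of the probes and drew their spread from the fitted prior. On the real arrays only 7762 of 21028 probes did not pass, so these shares hold for the simulated setting alone. The simulation does not show how the dye orientation or the background correction affects calls on the real arrays. Alternatives were other background corrections, median centring, the scanner's processed signals, the series table, a filter on negative controls, the mean over a gene's probes, ordinary least squares and each array alone. The series table was turned into ratios with the mean log10 red signal, so it nearly repeats the scanner's ratios and is not a separate measure. A bound sets the brighter channel's mean against the higher of the dim signal and the detection floor. Named members are those called at 2-fold, up to 3 per class nearest 0, a fixed list of well-known carriers (25 of 30 measured), the 3 with the largest difference between arrays and those with several probes. Others, such as members just outside the limit and paralogues of called members, were picked with their values in view. The members and lists were chosen with earlier results of these data known. The class of partner proteins was added, and peptides were put into the amino acid class's name, after the files were seen. Accessions on the array that matched no current symbol stayed unnamed. Some members that the rule names are not reported here.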

Additional observations from a re-analysis of the deposited data

How the results depend on the processing

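With no background correction the members called fell to 5 higher and 1 lower, the amino acid class to 1 lower, the inorganic ion class to 0 higher, and the metal and mitochondrial classes to 0 lower each, with a member median of 0.002. With a normexp offset of 0, 18 members were lower, the amino acid class had 3 higher, the inorganic ion class 1 lower, and the median was -0.041. With the background from the negative controls, 18 members were higher and 25 lower, the amino acid class had 4 higher and 5 lower, the inorganic ion class 6 higher and 1 lower, the metal class 2 higher and 5 lower, and the median was -0.023. Median centring gave a median of -0.041, and turned Slc7a5 to -0.023 and Slc30a6 to -0.054. The scanner's processed signals and the series table each gave 1 lower amino acid carrier and a median of 0.004. Over the 184 members above the negative controls the mitochondrial class had 0 lower, since Slc25a24 was left out. Ordinary least squares gave 0 calls in total and in each class, with 73 of 220 members at an unadjusted p under 0.05 and 1 probe of the array past adjustment. On each array alone, without a test, 7 to 11 members were higher (without replicate 2, Slc12a8, Slc25a5, Slc35g1 and Slc9b2 were not), 9 to 13 were lower, and inorganic ion carriers higher numbered 1 to 3. For the 80 named members alone, 876 values were computed under the alternatives. Of these, 822 kept their side of the 2-fold call, 47 lost it, 5 gained it, and the 2 above turned the sign of a member that had passed the test. Many of these values could hardly change. The filter on negative controls and ordinary least squares kept the main ratios, and averaging probes altered only Slc25a5 and Slc22a30. The series table nearly repeats the scanner's ratios, and many named members were picked for lying near 0. The count of 822 is therefore no measure of robustness. Among the 822, 72 had the opposite sign, all of members that had not passed, and median centring gave 18 of all sign changes. The ratio pairs ES cells and pool within each array. No pairing between samples was possible because the samples form 1 group. A cause beyond each setting's own construction was not tested. Signal over background limits the dim members, and the number of arrays limits the precision.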
